A study of Mus musculus with 10 samples.

Results

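The contacts described here are the chromatin contacts of mouse microglia that were sequenced far more often than their distance and their chromatin mark would predict. They were selected on the observed read-pair count and on its ratio to the expected count: at least 20 read pairs, and at least 8 times the number expected. Of 26689 interactions in the deposited list, 618 (2.32%) met both conditions. They fell into 330 clusters of neighbouring interactions, of which 182 held a single chosen contact, and they used 933 distinct anchor bins. Count, expected count, ratio, and the distance that enters the expected count are therefore given as descriptions, with no test.

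The interactions came from PLAC-seq, which ligates DNA fragments that lie close together in the nucleus and then pulls down those carrying H3K4me3. The authors combined 2 wild-type libraries into 1 list, so no contact has a value per replicate. Beside it stood H3K4me3 ChIP-seq in 2 libraries with 2 input libraries. All used whole-cell microglia sorted from brain as CD45+ CD11b+ CX3CR1+, from mice of the strain labelled C57/Bl6. The study's methods describe them as adult male C57BL/6J mice and the gate as low for CD45. The labels do not say whether the libraries came from separate animals, so their spread may be technical. Hi-C of 2 wild-type and 2 Sall1 Enhancer Knockout libraries was not analysed here. Read pairs are summed over all sorted cells, so a frequent contact in few cells and a rarer one in many cannot be told apart.

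A promoter can be brought next to distant DNA by looping. Enhancers, stretches that raise transcription from a distance, can act in this way, and H3K4me3 marks the promoters of active genes. Many loops are held by cohesin, a ring-shaped complex that slides along DNA and is halted by the DNA-binding protein CTCF, most often where CTCF motifs at the loop's ends point toward each other (a convergent pair). PU.1 is the lineage factor that opens many enhancers of microglia and macrophages.

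Sequence was not used to choose the contacts. The first sequences shown are the CTCF cores of the 3 named contacts of highest ratio that hold a convergent pair, because this motif's direction is described below for the whole set. They were read from GRCm38, the build of the files (mm10), 5′ to 3′ on the strand of the core, and capitals mark the core. The left anchors are on the plus strand and the right anchors on the minus strand. The Pitpnc1 cores lie at chr11:107213905-107213956, in an intron of the gene, and at chr11:107473327-107473378, between genes. The intergenic pair on chromosome 6 lies at chr6:86127091-86127142 and chr6:86364574-86364625. The Ptk2b cores lie at chr14:66175855-66175906, in an intron, and at chr14:66282502-66282553, between genes.
Pitpnc1 left anchor: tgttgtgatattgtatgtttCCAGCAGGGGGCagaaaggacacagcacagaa
Pitpnc1 right anchor: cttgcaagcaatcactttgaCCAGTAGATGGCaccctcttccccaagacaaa
Add2 to Fam136a left anchor: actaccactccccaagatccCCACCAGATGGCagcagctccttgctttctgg
Add2 to Fam136a right anchor: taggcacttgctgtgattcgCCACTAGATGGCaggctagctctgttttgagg
Ptk2b left anchor: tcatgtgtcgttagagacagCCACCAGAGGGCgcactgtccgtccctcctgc
Ptk2b right anchor: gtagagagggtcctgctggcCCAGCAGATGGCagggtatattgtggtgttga

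Pitpnc1 encodes a phosphatidylinositol transfer protein, and its contact joined the start-site bin to the far end of the same gene with 45 read pairs against 2.78 expected. The chromosome 6 contact had 38 against 2.51, with both anchors between genes, Add2 (an adducin of the membrane skeleton) and Fam136a being the nearest, and no H3K4me3 peak in either. Ptk2b, a tyrosine kinase gene whose human homologue lies at an Alzheimer's disease risk locus, was joined to its own interior by 37 read pairs against 3.74. RefSeq promoter windows (GRCm38.p6) ran from 250 bases before to 50 bases after the start. Those of 35 of the 44 named genes were searched on both strands for the CTCF core and the PU.1 core GAGGAAGT. A core was found in the window of Cebpb. Whether every other window lacked both cores is not reported here. The upstream 120 bases of the Cebpb window, at chr2:167688665-167688784 on the plus strand, carry a CTCF core pointing into the gene, the side on which its 4 chosen contacts lie. None of these 4 contacts had a facing core in its distal bin, so none held a convergent pair.
Cebpb promoter, upstream part: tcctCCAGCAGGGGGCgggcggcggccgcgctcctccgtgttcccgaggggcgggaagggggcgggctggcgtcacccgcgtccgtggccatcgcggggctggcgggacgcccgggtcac
Of all 31396 autosomal RefSeq promoter windows, 0.573% held the CTCF core and 3.25% the PU.1 core. Genes touched by chosen contacts had 225 windows, which covered 168 of the 227 genes, some with several windows. Of these windows, 2 (0.889%) held the CTCF core and 7 (3.11%) the PU.1 core.

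The chosen contacts had 20 to 119 read pairs (median 26) against 1.36 to 13.4 expected (median 2.60). Their ratios ran from 8.003 to 23.5, with a median of 9.94. Counting error was large beside the threshold: the exact Poisson 95% interval of the ratio, which treats the expected count as known, lay wholly at 8 or above for 149 of the 618. Conversely, the interval reached 8 in 995 other interactions with at least 20 read pairs.

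**Figure D1:**
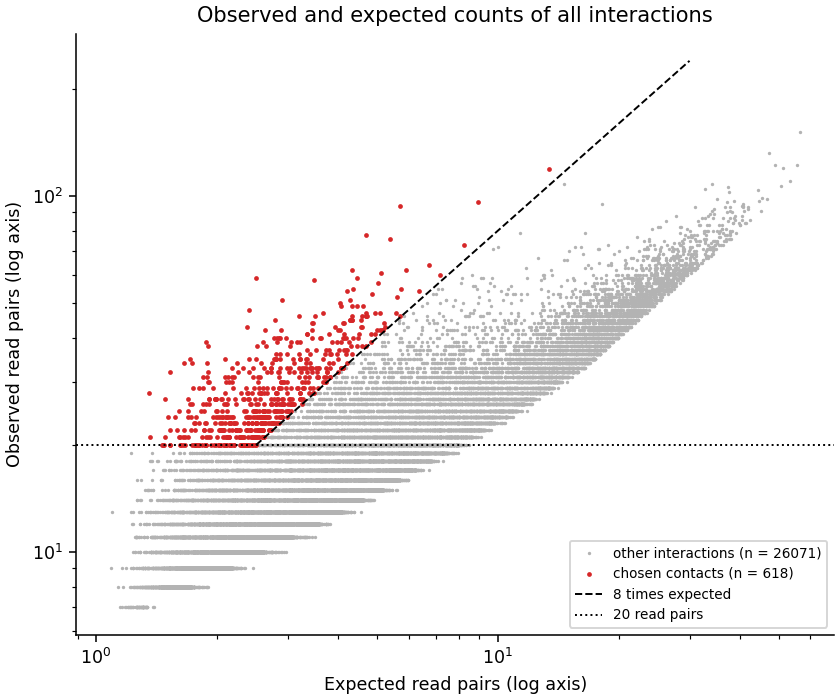
Observed against expected read pairs of every interaction, both on log axes, with the 618 chosen contacts in red and the 26071 others in grey. The chosen contacts sit above the dashed line of 8 times expected and on or above the dotted line of 20 read pairs, mostly at expected counts of a few read pairs.

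Just inside the ratio threshold were Ddx20, an RNA helicase gene, to an intron of Adora3 (8.003), an exon bin of Smg6 (8.01) and an exon bin of Rb1 (8.01). Just outside were contacts of Qrich2 (7.99), Pmp22 (7.99) and Rpp25 (7.99). Just inside the count threshold, at 20 read pairs, were the Jun promoter with an intron of Fggy (ratio 13.7) and a pair of contacts between intergenic bins (13.7 and 13.6). Just outside, at 19, were contacts of exon bins of Arhgef28 (15.6), Nrp1 (13.8) and Tomm20 (12.2). Altogether 62 chosen contacts had exactly 20 read pairs, and 71 further interactions with a ratio of at least 8 had 19.

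Anchors of the chosen contacts were 50 to 950 kb apart. Their median distance was 230 kb, against 120 kb for the other interactions. Among other interactions with the same minimum of 20 read pairs the median was 45 kb. This follows the rule, since few read pairs are expected between distant bins and a high ratio is reached there more easily. Only 15 chosen contacts (2.43%) were shorter than 100 kb and 44 (7.12%) were longer than 500 kb. For this reason several shares below are also given within 150 to 350 kb, a class that holds 407 of the chosen contacts and 8046 others.

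**Figure D2:**
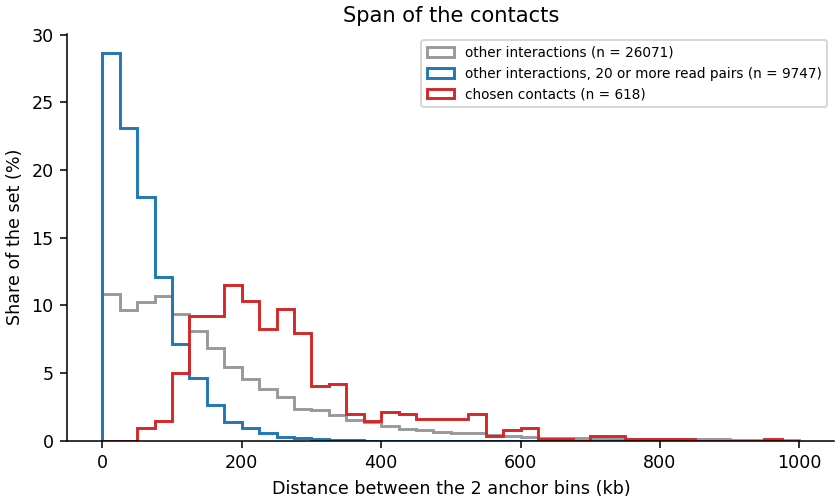
Distance between the anchor bins in kb (25 kb steps) against the share of each set in percent, for the chosen contacts, all other interactions and the other interactions with 20 or more read pairs. The chosen contacts have a median of 230 kb, against 120 kb and 45 kb.

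A protein-coding transcription start site (TSS) lay in at least 1 anchor of 54.0% of the chosen contacts (exact binomial 95% interval 50.0 to 58.0, counting error only), beside 55.4% of all interactions. In 314 contacts exactly 1 anchor held a TSS and in 20 (3.24%) both did, against 5.27% of the other interactions. A TSS was absent from both anchors of 284 (46.0%, against 44.6%). A further view by noncoding genes found 72 contacts (11.7%) with an anchor whose only TSS was noncoding, against 13.4%. Among other interactions with at least 20 read pairs, which are shorter, 61.2% touched a coding TSS and 6.96% did so at both anchors. Within 150 to 350 kb the share with a TSS in at least 1 anchor was 54.3%, against 57.2% of the others.

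These contacts touched 227 coding genes, 4.44% of the 5115 with any interaction. Of these genes 138 had 1 chosen contact, 74 had 2 or 3, and 6 had 5 or more. The genes touched had a median of 10 interactions of any strength, against 2 for genes with interactions but none chosen, and a gene with more interactions has more chances to be touched. At 203 of the 227 the TSS bin in contact carried an H3K4me3 peak in both replicates, and at 212 any TSS bin of the gene did. PLAC-seq pulls down H3K4me3, and these counts were not made over all 5115 genes, so no excess can be read from them.

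Tmem242, which encodes a mitochondrial membrane protein, had the most, with 8 of its 16 interactions chosen. They formed an unbroken run of neighbouring bins 280 to 315 kb upstream, in Zdhhc14, a palmitoyltransferase gene, or, for the farthest, between genes. Their read pairs numbered 22 to 48 against 1.93 to 2.88 expected. The ratio was highest, at 20.02, at 305 kb and lowest, at 9.85, in the neighbouring bin at 300 kb.

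The bin shared by Srgap2 and Fam72a had 7 of 30 interactions chosen, 165 to 205 kb away within Srgap2, with ratios between 8.39 and 9.88. Srgap2 encodes a regulator of cell migration, Fam72a belongs to the study's microglia signature, and the bin cannot assign the contacts to either gene. Maf, a transcription factor gene of macrophages and microglia, had 6 of 38. Unlike those of Tmem242, the Maf contacts were spread over separate places downstream of the start, at 285, 475, 545, 550, 610 and 615 kb, with ratios from 8.03 to 9.56. All but the nearest were in introns of Wwox, an oxidoreductase gene.

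Rnf150, a ubiquitin ligase gene, had 5 chosen contacts at 220 to 240 kb, in its own exon bins or between genes past them, the highest with 76 read pairs against 5.39. Zfp703, a zinc finger repressor gene, had 4 upstream contacts at 275 to 290 kb and another at 530 kb, all to intergenic bins. Ccnd1 encodes cyclin D1, which drives entry into the cell cycle. Of its 4, those 300 to 310 kb upstream were in introns of Tpcn2, an ion channel gene, and the other was intergenic at 175 kb, where 26 read pairs stood against 3.08.

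**Figure D3:**
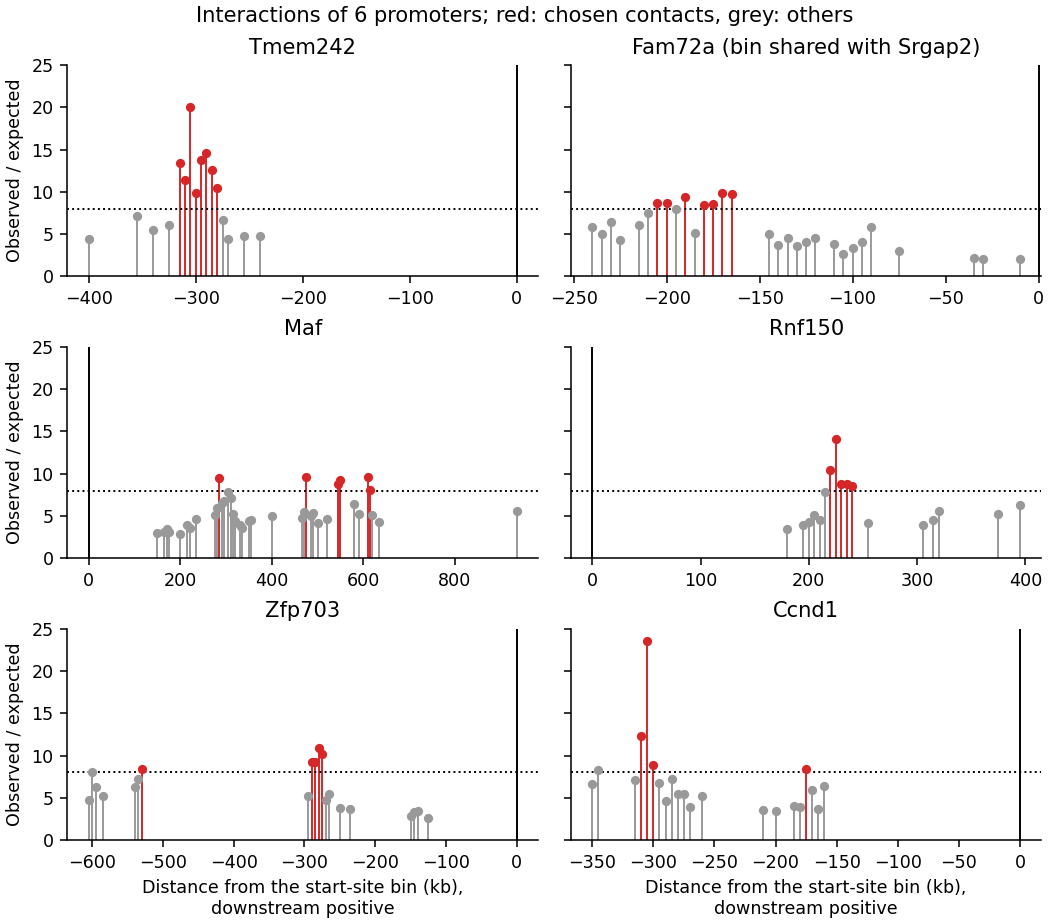
Ratio of observed to expected read pairs (y axis) of every interaction of the 6 promoter bins with the most chosen contacts, by distance in kb from the start-site bin with downstream positive. Chosen contacts (red) of Tmem242 form a single run 280 to 315 kb upstream, while those of Maf lie at separate places from 285 to 615 kb downstream; grey points above the dotted line at 8 had fewer than 20 read pairs, and the shared bin is drawn along Fam72a.

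Cebpb encodes C/EBP beta, a factor of myeloid differentiation and inflammation. Its 4 chosen contacts of 13 reached 175 to 210 kb, and the strongest had 43 read pairs against 2.38 (ratio 18.1, Poisson interval 13.1 to 24.4). Its distal bin lay between genes, 39.8 kb from the start of Ptpn1. The Cebpb start bin had H3K4me3 of 140.2 and 169.3 tags per 10 M in replicates 1 and 2.

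Of the remaining genes with 4 chosen contacts, Kif26b, a kinesin gene, reached farthest, 610 to 950 kb into introns of Smyd3, from a start bin with weak H3K4me3 (25.7 and 23.9). Fam43a reached 375 to 475 kb, into introns of Xxylt1. Ephb3, an ephrin receptor gene, had contacts at 180 to 215 kb with up to 40 read pairs against 2.77. Pitpnc1 stayed within 250 to 265 kb, the Gtf3c6 contacts within 260 to 275 kb and the Nemf contacts within 210 to 225 kb, so each of these 3 was a narrow run. Gtf3c6 encodes a subunit of the RNA polymerase III factor TFIIIC, and 4 of its 7 interactions were chosen.

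When each cluster was represented by its strongest contact, those placed 11th to 30th had ratios from 18.1 down to 15.0. Cebpb headed them. Others with a coding TSS in an anchor were Snx18 (a sorting nexin, 78 read pairs against 4.69, to an exon bin of BC067074), Gnpda1 (58 against 3.49, to Ndfip1), Pitpnc1, the shared bin of Spata48 and Zpbp, Trmt12 (42 against 2.64, to Fer1l6), Fam43a and Uhmk1. Spocd1 was also among them, with 34 against 2.25 to an intron of Khdrbs1, although its start bin had a peak in replicate 2 only. The Uhmk1 contact passed over the starts of 5 coding genes, the most in this group.

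The other 11 of these 20 had no coding TSS in either anchor. The strongest by read pairs joined a bin at March10 that holds the start of the noncoding gene Gm11638 to an exon bin of Tanc2, a synaptic scaffold gene, with 94 read pairs against 5.70. The coding start of Tanc2 was 2.509 kb from the middle of that 5 kb bin, so just outside its edge. Both anchors of this contact were marked, at 111.4 and 165.6 (replicates 1 and 2) and at 360.7 and 402.8 tags per 10 M. A contact of 725 kb on chromosome 9 joined the start of Gm48710, nearest to Ubash3b, to a bin nearest to Sorl1. It had 27 read pairs against 1.70, and both anchors were marked, at 55.3 and 92.5 and at 81.0 and 84.3.

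One of the anchors without a coding start was 2.55 kb from that of Plk2, a polo-like kinase gene, and had H3K4me3 of 157.4 and 205.9. It contacted a bin 580 kb away with 24 read pairs against 1.51. Another lay 39.5 kb from Zfp36l1, an mRNA decay factor gene, and contacted an intron of Rad51b with 21 against 1.36, where the Poisson interval of the ratio ran from 9.53 to 23.5. The remaining anchors included introns of Dock4 and Kcnq1 and bins nearest to Tiam1 and Sod1.

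Contacts between the starts of 2 different genes were few. The highest ratio was that of Wnk1 and Ninj2, with 39 read pairs against 2.61, where Wnk1 was marked (282.8 and 263.3) and Ninj2 had no peak. Vegfa, the gene of the vascular growth factor, was joined to 1600014C23Rik by 35 against 2.78 over 300 kb. Mertk, a receptor for the uptake of dying cells, was joined to Tmem87b by 96 against 8.91 over 120 kb, with both starts strongly marked (328.0 and 349.1, and 295.3 and 312.5).

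Ibtk and Dop1a (720 kb, 20 against 1.81) and Ddx20 and Wdr77 (270 kb, 43 against 3.92) were likewise marked at both starts in both replicates. The other 3 of the 8 highest were Cd24a with Rtn4ip1, Vps35l with Gprc5b, and Ankrd11 with Spg7. Of these, the first pair was marked at Cd24a, the second at Gprc5b and the third at neither. The 8 ratios ran from 9.27 to 14.9.

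Among anchors whose only TSS was noncoding, D330050G23Rik held the 2 highest ratios, 20.8 and 16.8, both to Spred1, an inhibitor of Ras signalling. Gm11638, Gm48710 and Gm16239 followed with 16.5, 15.9 and 15.0. H3K4me3 at the start of D330050G23Rik was 48.3 and 28.3. At Gm16239 no peak was called in either replicate.

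Of 967 symbols over 25 gene lists, 426 autosomal coding genes had an interaction and 39 (9.15%) had a chosen contact, beside 4.44% of all genes with an interaction. These lists were assembled with earlier results of these data known, and no list was tested. Homeostatic microglia genes gave 6 of 19: Mertk, Sall1, Jun, Olfml3, Itgb5 and Tgfbr1. Sall1, the zinc finger factor that maintains microglial identity, had 2 chosen contacts of 19, at 525 and 535 kb. None of the 12 disease-associated microglia genes with an interaction had one. A list of this size can give none beside the background of 4.44%, and it was not compared with the homeostatic list.

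Myeloid transcription factors gave 7 of 46. Egr2, an early response factor gene, had 3 chosen contacts at 180 to 190 kb, with up to 35 read pairs against 3.35. Runx1, a regulator of blood and microglial development, had 1 at 595 kb with 27 against 1.90. The others were Maf, Cebpb, Jun, Ikzf1 and Klf3.

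TGF-beta and SMAD genes gave 2 of 21, Ldlrad4 and the receptor gene Tgfbr1 (33 against 4.11 at 100 kb). Cell cycle regulators gave 4 of 13: Ccnd1, Cdk6, Gadd45g and Btg1. Cdk6, the kinase partner of D cyclins, was joined to its own intron by 49 read pairs against 4.60. Btg1, an antiproliferative gene, had 39 against 3.21.

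Glucocorticoid and hypoxia response genes gave 5 of 16. Tsc22d1 reached 505 kb (27 against 1.49), Sgk1, a kinase gene induced by glucocorticoids, 535 kb at most, and Cited2 725 kb. Pfkfb3, a regulator of glycolysis, was joined to a bin with the noncoding gene Gm37851 by 62 against 4.33. Axon guidance and adhesion receptors gave 4 of 21, where Nrp1, a semaphorin and VEGF coreceptor gene, had the highest ratio of 20.5 (34 against 1.66) over 770 kb.

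Alzheimer's disease risk homologues gave 3 of 27 (Ptk2b, Ms4a6d and Ikzf1) and MAP kinase feedback genes 2 of 14 (Rgs2 and Dusp6). Igf1r, a growth factor receptor gene, was joined to its own intron by 57 read pairs against 5.02. Inflammatory response genes gave 1 of 21, Il6, with 26 read pairs against 2.43 at 185 kb. The complement, Fc receptor and phagocytosis list gave 1 of 22 (Mertk) and the proteasome and respiratory chain list 1 of 13 (Psma1).

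The lists of interferon response (13 genes with an interaction), lysosome (18), antigen presentation (14) and ribosomal protein genes (16) gave none at a chosen contact. Lists of this size can give none beside the background of 4.44%, and they are not complete. Outside them, Rpl29, a ribosomal protein gene, had 37 read pairs against 4.02. Galns, a lysosomal enzyme gene in a bin shared with Trappc2l, had 33 against 2.61. The interferon-induced genes Irgm1 (28 against 2.57) and Zbp1 (22 against 1.76) also had chosen contacts. The study's microglia signature gave 9 of 132 (6.82%), among them Fam72a, Ephb3, Spsb1 and Sall1. Of the loci the study examined, Sall1, Olfml3 and Ms4a6d were at an anchor. The chosen Sall1 contacts, at 525 and 535 kb, lie farther from the start than the study places its Sall1 super-enhancer, a cluster of enhancers. Tmem119, Apoe, P2ry12, Tgfbr2 and Ski had interactions but none chosen, and Selplg, Slc2a5 and Ms4a6b had no interaction at the 5 kb bins that hold their starts, and neighbouring bins were not counted.

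Few markers of other cells had any interaction, so their counts say little beside the background of 4.44%. The neuron, astrocyte, endothelial and mural, border macrophage, developmental, and monocyte, neutrophil and lymphocyte lists had 1 to 3 such genes each and none at a chosen contact. These lists are not complete. Outside them, the channel and receptor genes Cacna1e (highest ratio 12.5), Grik4 (12.8) and Scn2b (9.40) had chosen contacts. So did the developmental factor genes Hoxd8 (9.08) and Foxc2 (8.97) and the matrix genes Col14a1 (11.1) and Postn (10.2). In replicates 1 and 2, H3K4me3 was 19.5 and 29.1 at the Cacna1e start bin and 96.6 and 69.4 at that of Grik4. The Scn2b bin had 9.35 and the Hoxd8 bin 26.5 in replicate 1, with no peak in replicate 2. Values were 78.7 and 90.3 at Foxc2, 15.6 and 26.1 at Col14a1, and 27.3 and 14.9 at Postn. Oligodendrocyte markers gave 1 of 5, Pdgfra, the receptor of oligodendrocyte precursors, with 34 read pairs against 2.75 at 210 kb. Its start bin had H3K4me3 of 9.35 and 10.4, below the lower quartiles of 140.2 and 151.4 over the marked start-site bins of the set. In the whole data, 26 of 28 homeostatic microglia genes carried H3K4me3 at a start. So did 1 of 20 monocyte, neutrophil and lymphocyte markers, 2 of 12 border macrophage, 5 of 16 neuron, 5 of 13 astrocyte, 5 of 13 oligodendrocyte and 6 of 16 endothelial and mural markers, and 17 of 29 developmental regulators of other lineages. The part of other cells in the contacts was not tested.

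H3K4me3 at the anchors differed little from that of the whole list. Both anchors were marked in both replicates in 55 of the 618 (8.90%, 6.77 to 11.4), beside 9.43% of all interactions and 9.45% of the others. One was marked in 75.9% (74.7% of the others) and neither in 15.2% (15.8%). These shares use the deposited HOMER peaks, whereas the authors called interactions with peaks from another pipeline. By the authors' own marking of bins in the list, both anchors were marked in 11.2% (12.4% of the others). By that marking every interaction of the list, chosen or not, had at least 1 marked anchor. Among other interactions with at least 20 read pairs, both anchors held a HOMER peak in 12.2%. Within 150 to 350 kb both were marked in 7.37% against 9.15%.

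The height of the mark was also similar at promoters. At 191 marked start-site bins of the chosen contacts the median was 232.2 and 243.9 tags per 10 M in replicates 1 and 2, against 218.9 and 228.2 at 4119 marked start-site bins outside the set. Over all 371 marked anchor bins of the set, with or without a start, the medians were 116.9 and 116.4 against 147.2 and 148.05. The direction of the difference therefore depended on whether bins without a start were included.

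**Figure D4:**
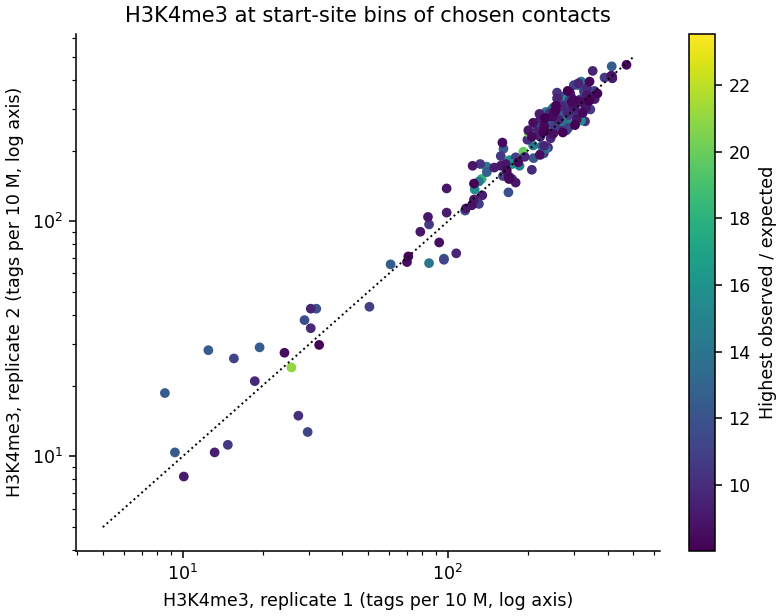
H3K4me3 of the tallest peak in tags per 10 M, replicate 1 against replicate 2, both on log axes, at the 188 marked start-site bins of genes touched by chosen contacts, coloured by the highest ratio there. In 183 of the 188 the replicates lie within 1.5 times of each other.

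For the 314 contacts with a coding TSS in exactly 1 anchor, the distal bin was asked for its nearest coding start. It was the contacted gene in only 39 (12.4%), against 23.1% of the other interactions with 1 such anchor. Within 150 to 350 kb the shares were 10.5% and 11.99%, a smaller gap than over all spans. The distal bin lay upstream of the gene in 137 contacts, downstream in 156 and on different sides for different genes of the bin in 21. It was intergenic in 143 (45.5%, against 39.5%, and 45.9% against 43.8% within 150 to 350 kb), and 33 (10.5%, against 10.7%) were marked.

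The 299 distal bins included 14 reached from 2 or more start-site bins. An intron bin of Tpcn2 was contacted by Ccnd1 and by LTO1. The Xxylt1 intron was shared by Fam43a and Lsg1, and a bin in Pitpnc1 by Pitpnc1 and Psmd12. A bin at A830008E24Rik was contacted from 3 starts, those of Glul, Teddm1a and Teddm2. These 3 start-site bins are direct neighbours, as are those of Pitpnc1 and Psmd12, and the Fam43a and Lsg1 bins lie close together. Whether such bins have separate contacts or share a broad one cannot be told apart. At Ephb3, Tsc22d1 and Mylip the start-site bins belonged to the same gene.

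The CTCF core, the central letters of the CTCF motif, was more frequent at the chosen contacts than at other anchors. It was present in 18.3% of the 930 anchor bins with complete sequence, in 7.08% of the other anchor bins and in 2.47% of all 478887 autosomal bins. The share was similar at marked (17.0%) and unmarked (19.1%) anchors of the set. With 1 ambiguity position relaxed, the shares were 40.3%, 31.2% and 15.3%. The PU.1 core gave 28.9%, 30.2% and 26.8%, and median GC content was 46.8%, 46.1% and 41.4%.

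The directions of paired cores also differed in share. A plus-strand core in the left bin with a minus-strand core in the right was present in 24 contacts (3.88%, 2.504 to 5.72), against 0.599% of all interactions and 0.522% of the others. Cores in the same direction were present in 3 contacts (0.485%, against 0.322% of all interactions). A divergent pair was present in none of 618, for which the exact upper bound is 0.595%. Of all interactions 0.03% (8 of 26689) held a divergent pair, so its absence from the set says little. Within 150 to 350 kb the convergent share was 3.44% against 0.472%. With the relaxed core over all spans the convergent share was 12.8% against 5.42%, while divergent pairs were at 1.29% against 2.62%. Within 150 to 350 kb the relaxed core gave 10.1% against 5.61% for convergent and 0.737% against 2.01% for divergent pairs.

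These intervals count neighbouring contacts of a cluster as separate, and no test of the difference was made. A motif match is not evidence of binding, and no CTCF data were analysed. The convergent contacts included those of Pitpnc1, of Ptk2b and of Glul named above. Most of the chosen contacts held no exact core in either anchor: 201 of the 618 (32.5%) held one in at least 1 anchor, against 16.8% of the others, and 29.5% against 18.2% within 150 to 350 kb.

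**Figure D5:**
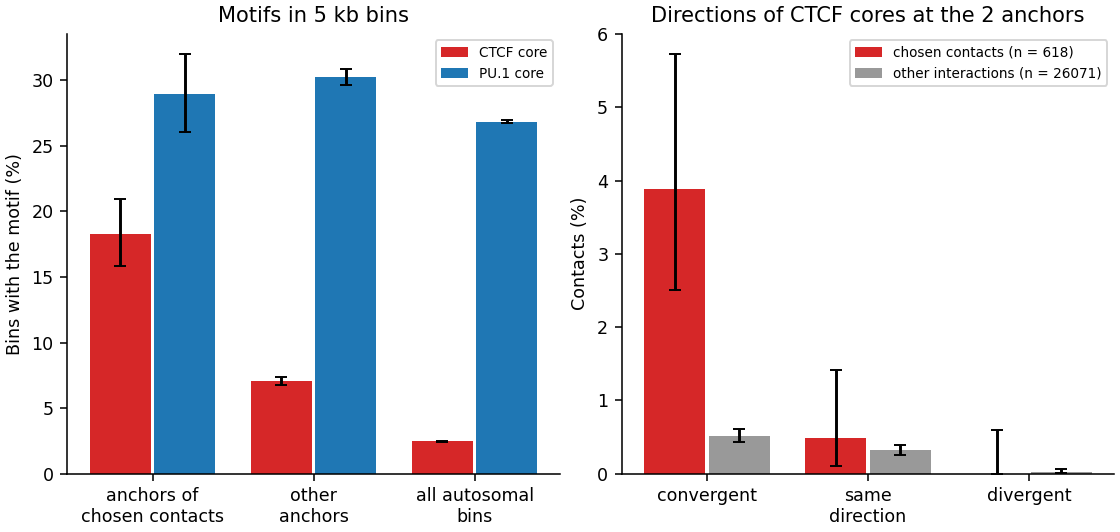
Left, share of 5 kb bins in percent that hold the CTCF core or the PU.1 core, at anchors of the chosen contacts, at other anchors and in all autosomal bins. Right, share of contacts in percent by the directions of the CTCF cores at their anchors, with exact binomial 95% intervals as bars in both panels. The convergent share is 3.88% in the chosen contacts and 0.522% in the others, whereas the PU.1 core is in 28.9% and 30.2% of the anchor bins.

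By chromosome, the chosen contacts made up 0.908% of the interactions of chromosome 5 (14 of 1542), the lowest share, and 3.64% of those of chromosome 16 (36 of 988), the highest. Fam43a, Ephb3 and Itgb5 were among the genes touched on chromosome 16.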

How the data were processed

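Per the labels and the study's methods, the authors mapped PLAC-seq reads to mm10, merged the replicates and called interactions between 5 kb bins with MAPS. The deposited list holds an observed count and an expected count (deposited by the authors as a signal) for each, and the ratio was computed here from these deposited values. The p-values and FDR of the deposited list were not used. The authors called H3K4me3 peaks with HOMER, and the deposited signal is tags per 10 M. Library depths were 12.8 and 13.4 M tags; the depth of the PLAC-seq libraries was not given in the sources used here.

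A bin was marked where a peak overlapped it by 1 bp or more in both replicates, and its value is its tallest peak. Start sites came from GENCODE M21 (GRCm38). Motifs were searched exactly on both strands with Python 3.11.15, and the code was tested on simulated data. Intervals are exact (scipy 1.17.1). The PLAC-seq counts are not replicated, so no test across contacts was run.

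The contacts, lists and named genes were chosen with earlier results of these data known. Named were contacts placed 11 to 30 by cluster, the 15 genes with most chosen contacts, up to 4 per list, the 8 strongest start-to-start contacts, 5 noncoding starts, contacts beside each threshold and 3 convergent CTCF pairs outside chromosome 18. Klf3, Cited2, the genes sharing distal bins and the genes given as lying outside a list were named beyond this rule after their values were seen. Some genes at the anchors are not reported here.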

Additional observations from a re-analysis of the deposited data

How the results depend on the processing

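No paired analysis was possible because the interactions are 1 combined list without replicate columns and no groups were compared by a test. The number of contacts (618) was 1273 and 304 with a ratio of at least 6 and 10, 953 and 232 with at least 15 and 30 read pairs, 330 with 1 contact per cluster and 328 with summits and single interactions only. At those ratios the genes of the lists numbered 68 and 23 in place of 39, and the median H3K4me3 of marked anchors was 130.15 and 83.9 in place of 117.9. It was 124.6 with 1 contact per cluster, 138.5 with peaks summed, and 116.4 to 116.9 without either replicate. The share with both anchors marked (8.90%) was 11.8% to 11.97% without either replicate and 4.69% with peaks of value at least 20.

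The median span (230 kb) was 180 and 262.5 kb at ratios of at least 6 and 10, and 265 and 177.5 kb with at least 15 and 30 read pairs. The share with a coding start (54.0%) was 58.8% and 47.0% at those ratios, 48.9% and 67.2% at those counts, 68.4% with starts within 2.5 kb, 61.8% with any transcript type and 68.1% with the authors' gene column. The convergent CTCF share (3.88%) was 10.2% with 5 kb added on each side and 12.8% with 1 relaxed position. The span class of 150 to 350 kb was chosen after seeing the data. The causes of these shifts were not tested. Counting error limits the set: the Poisson interval of the ratio lay wholly at 8 or above for 149 of the 618 contacts. Depth itself was not varied.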
